A study of Mus musculus with 30 samples.

Results

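The receptor genes of T cells and natural killer (NK) cells were followed in RNA of the healing tibial fracture callus of lean and diet-induced obese (DIO) mice. The 10 genes were taken by name from the count table, which lists 43629 genes. They are Cd3e, Cd3g and Cd247 (chains of the T cell receptor complex), Lck (its kinase), Cd4 and Cd8a (coreceptors), Cd226 and Klrd1 (receptors of NK cells and some T cells), and Nkg7 and Gzma (granule genes of cytotoxic cells). Mice were male C57BL/6J, 20 weeks old, and stayed on a high-fat diet (DIO) or a control diet (lean) until harvest. Every mouse, lean or DIO, had an open osteotomy of the right tibia held by an intramedullary nail, so no group is unfractured. Callus of both diets came from d3, d5, d7 and d10 after fracture, with d14 and d21 added for DIO mice. Each of these 10 groups held 3 mice with 1 library each, 30 libraries in all. Lean callus of d14 and d21 was not analysed here, so the late values stand without a lean counterpart.

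T cells read antigen through a clonal receptor that signals only together with the CD3 chains and the zeta chain, which is the product of Cd247. Lck, bound to the coreceptors CD4 or CD8, phosphorylates these chains and so starts the signal. NK cells carry no such clonal receptor and weigh activating against inhibitory receptors, and both NK cells and cytotoxic T cells kill with proteases such as granzyme A from secretory granules. In bone, T cells are known as a source of RANKL, the cytokine that drives osteoclast formation.

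Windows of 300 bases around the annotated starts of 6 of these genes are shown because these had the highest log2 fold changes of the 10 between DIO d21 and d3, and none of the measurements here reads the promoter itself. They are RefSeq sequence of GRCm38.p6, written 5′ to 3′ on the strand of the gene, and capitals mark matches on either strand to 1 of 6 short motifs.
Cd3e promoter, chr9:45009562-45009861, minus strand: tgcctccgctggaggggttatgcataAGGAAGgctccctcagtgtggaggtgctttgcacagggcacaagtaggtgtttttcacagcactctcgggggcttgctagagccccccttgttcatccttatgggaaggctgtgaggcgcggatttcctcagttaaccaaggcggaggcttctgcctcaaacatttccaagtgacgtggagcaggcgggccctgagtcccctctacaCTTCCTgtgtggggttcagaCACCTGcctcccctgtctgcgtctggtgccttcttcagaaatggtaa
Cd3g promoter, chr9:44980382-44980681, minus strand: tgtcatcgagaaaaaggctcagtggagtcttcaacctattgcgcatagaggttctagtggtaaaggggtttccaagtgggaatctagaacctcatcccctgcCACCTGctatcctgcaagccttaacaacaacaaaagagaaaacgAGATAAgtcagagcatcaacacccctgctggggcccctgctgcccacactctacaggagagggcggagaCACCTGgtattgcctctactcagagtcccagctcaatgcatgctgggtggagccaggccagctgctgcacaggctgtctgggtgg
Lck downstream promoter, chr4:129558323-129558622, minus strand: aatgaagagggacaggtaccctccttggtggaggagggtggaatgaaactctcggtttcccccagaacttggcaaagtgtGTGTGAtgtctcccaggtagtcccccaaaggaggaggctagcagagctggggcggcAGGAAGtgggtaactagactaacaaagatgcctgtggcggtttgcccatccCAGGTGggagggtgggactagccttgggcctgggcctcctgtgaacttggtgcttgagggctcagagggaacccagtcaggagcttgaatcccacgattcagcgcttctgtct
Lck upstream promoter, chr4:129573592-129573891, minus strand: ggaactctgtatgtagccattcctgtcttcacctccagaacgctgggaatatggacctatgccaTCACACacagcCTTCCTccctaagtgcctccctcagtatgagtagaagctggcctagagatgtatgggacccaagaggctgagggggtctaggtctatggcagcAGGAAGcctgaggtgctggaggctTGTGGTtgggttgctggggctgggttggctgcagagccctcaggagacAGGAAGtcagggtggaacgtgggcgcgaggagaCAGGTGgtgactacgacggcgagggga
Cd8a promoter, chr6:71373177-71373476, plus strand: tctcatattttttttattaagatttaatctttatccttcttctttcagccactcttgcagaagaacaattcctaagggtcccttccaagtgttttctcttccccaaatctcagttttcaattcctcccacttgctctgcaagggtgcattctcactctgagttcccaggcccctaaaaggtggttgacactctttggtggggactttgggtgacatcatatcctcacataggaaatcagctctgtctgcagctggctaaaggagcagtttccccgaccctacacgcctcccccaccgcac
Gzma promoter, chr13:113100932-113101231, minus strand: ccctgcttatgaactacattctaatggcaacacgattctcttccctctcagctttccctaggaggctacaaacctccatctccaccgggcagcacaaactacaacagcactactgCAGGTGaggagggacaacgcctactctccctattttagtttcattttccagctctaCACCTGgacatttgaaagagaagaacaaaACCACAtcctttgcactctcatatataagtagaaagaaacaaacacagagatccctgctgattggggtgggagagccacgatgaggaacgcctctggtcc
Nkg7 promoter, chr7:43436888-43437187, plus strand: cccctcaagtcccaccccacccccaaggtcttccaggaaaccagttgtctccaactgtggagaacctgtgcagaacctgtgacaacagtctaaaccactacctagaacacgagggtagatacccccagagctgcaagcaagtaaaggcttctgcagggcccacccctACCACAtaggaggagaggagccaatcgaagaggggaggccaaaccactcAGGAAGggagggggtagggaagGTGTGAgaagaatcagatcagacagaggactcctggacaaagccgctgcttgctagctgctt

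The letters AGGAAG were searched for the ETS core, the letters TGTGGT for RUNX, the letters CAGGTG for the E-box, the letters TCACAC for the T-box, the letters AGATAA for GATA factors and the letters TATAAA for the TATA box, and no matches overlapped. The ETS core stood in 35.4% of all 32851 windows of this length in the RefSeq table, the E-box in 20.2%, RUNX in 16.8%, T-box in 14.5%, TATA in 13.6% and GATA in 11.2%. Windows were used for 7 of the 10 genes, 8 windows in all because Lck has an upstream and a downstream start. The E-box letters occurred in the windows of Cd3e, Cd3g, Cd247, Gzma and in both Lck windows. The upstream Lck window held 3 ETS matches and the downstream one 1, and RUNX letters occurred in the windows of Gzma, Nkg7 and upstream Lck. The Cd8a window held none of the 6 motifs and so has no capitals. These are letter matches and were not measured as binding.

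The counts are raw reads per gene, and library totals ran from 13247122 to 26365620 reads (median 16854427). CPM, the usual unit of reads relative to the library total, was computed with totals scaled by TMM factors, and 3 counts, taken here as the limit of detection, were worth 0.114 to 0.226 CPM. Median CPM over the 30 libraries ran from 0.849 for Cd3e to 13.4 for Cd4. At 3 counts or more, 5 of them (Cd247, Lck, Cd4, Klrd1 and Nkg7) were detected in all 30 libraries, and at 10 counts or more, 3 were. Cd3e and Gzma reached 3 counts in 26 libraries, Cd226 in 28, and Cd3g and Cd8a in 29. Library 2 of lean d3 was the highest of its group and library 1 of lean d10 the lowest of its group for all 10 genes, and both also stood apart in Ptprc (CD45, a protein of all leukocytes), at 257 and 18.3 CPM.

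On a scale of mean CPM over the 30 libraries divided by kilobases of exon, Nkg7 had the highest level at 14.7, followed by Cd4 at 3.44, Lck at 2.17, Gzma at 1.68 and Klrd1 at 1.67. The lowest were Cd8a at 0.501, Cd247 at 0.436, Cd226 at 0.353 and Cd3e at 0.218, with Cd3g at 0.516. In CPM not divided by length, Cd3e averaged 0.891, which put it at the 13.4th percentile of the genes kept by the filter on low counts, and Cd4 averaged 13.9, at the 43.9th. Cd247 (1:165788681-165877277, plus strand) shares 56.4% of its exon bases with Pou2f1 on the opposite strand. The library kit keeps strand, but the strand option used in counting is not given in the sources used here, so the reads of Cd247 are uncertain. For Cd3e that share, with Gm48719, was 3.31%.

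**Figure D1:**
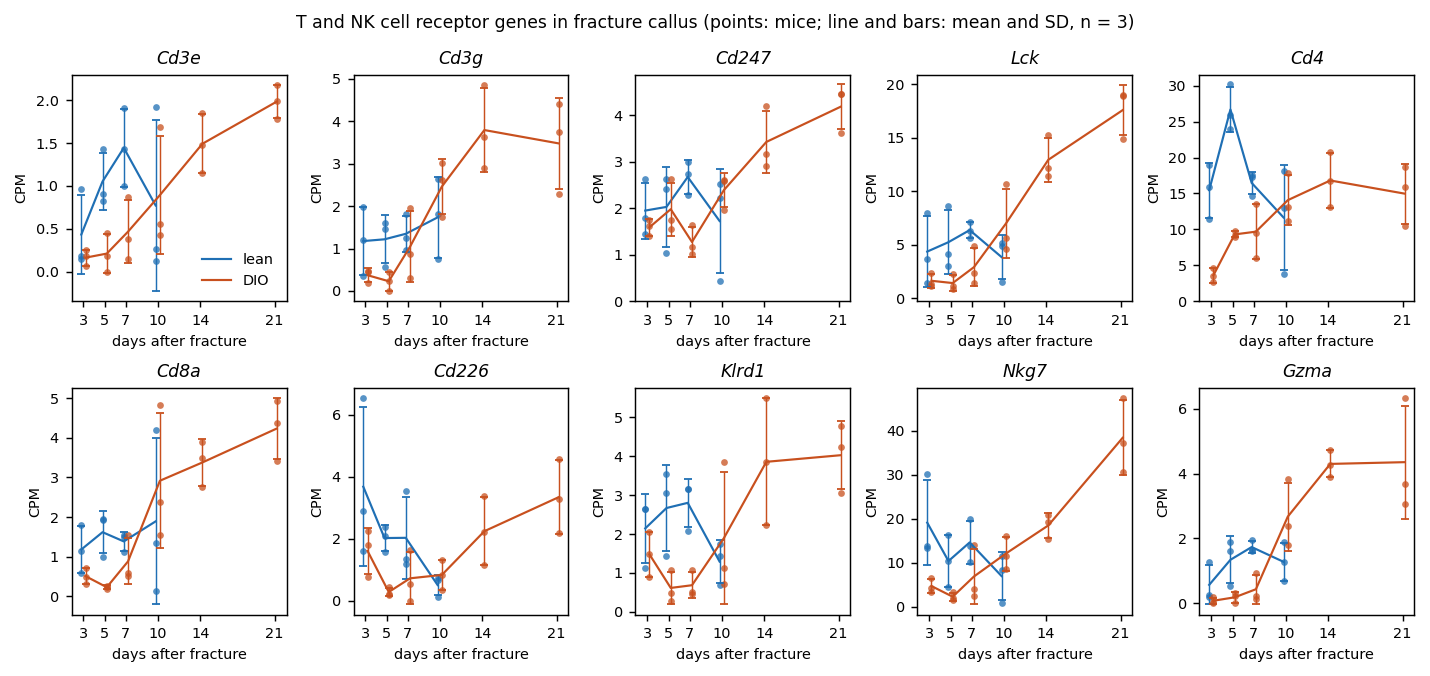
CPM (linear axis) of the 10 genes against days after fracture in lean (blue) and DIO (orange) callus, with a point for each mouse and lines and bars for the mean and SD of 3 mice. In DIO callus Lck climbed from a mean of 1.65 CPM on d3 to 17.6 on d21, and the lean points of Cd4 on d5, 23.95 to 30.2 CPM, lay above those of every other group.

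In DIO callus the means of all 10 genes were lower on d3 and d5 than on d14 and d21. The course between was not the same for all, as the Cd247 mean was lowest on d7 (1.27 CPM). For Cd226 the d3 mean (1.61 CPM) was above those of d7 and d10 (0.725 and 0.835 CPM). In the test over the 6 DIO days (edgeR quasi-likelihood F-test, 5 coefficients together), all 10 had an adjusted p under 0.05, from 3.44e-06 for Lck to 0.00933 for Cd226, against 59.1% of all genes tested. All 10 kept this call when any of the 18 mice was left out. By d21 against d3, 9 of the 10 had risen and did not overlap between the days, with 23.5% of all genes called higher in that comparison and 28.8% higher without overlap. Their median log2 fold change was 3.03, where the median of all genes tested was 0.03. The p-values set the differences between group means against the spread between these mice. In a bulk sample, fewer cells of a type and less RNA per cell cannot be told apart.

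Lck, the Src-family kinase that phosphorylates the CD3 and zeta chains, had 2.40, 1.39 and 1.15 CPM in the 3 DIO mice of d3 and 2.28, 1.13 and 0.902 on d5. It had 4.60, 10.7 and 5.67 CPM on d10, 12.2, 15.3 and 11.4 on d14, and 18.9, 14.9 and 19.02 on d21. The d10 mice already lay above those of d3 without overlap, and the d14 mice above those of d10, while d14 and d21 overlapped. Lck was higher on d10 than on d3 by 2.09 on the log2 scale (SE 0.43, edgeR adjusted p = 0.00292) and on d21 than on d3 by 3.42 (SE 0.44, adjusted p = 1.34e-05).

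The 3 receptor chains began from lower levels. Cd3e, the epsilon chain, had 3, 6 and 1 counts in the DIO mice of d3 (0.180, 0.246 and 0.0606 CPM) and 31, 34 and 42 counts on d21 (1.79, 2.00 and 2.18 CPM). The sum of its counts, scaled by library size, was 11.5 times higher on d21, with a 95% counting interval of 6.0 to 24.6, and its fitted log2 fold change was 3.50 (SE 0.77, edgeR adjusted p = 0.00139). Such intervals cover counting error only. The gamma chain gene Cd3g had 0.481, 0.451 and 0.182 CPM on d3 and 3.74, 2.29 and 4.41 on d21, a log2 fold change of 3.18 (SE 0.65, adjusted p = 0.000742). Cd247 moved less, from 1.62, 1.39 and 1.76 CPM on d3 to 3.63, 4.46 and 4.46 on d21 (log2 fold change 1.40, SE 0.29, adjusted p = 0.000975). Neither group overlapped the other for any of the 3 chains.

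The coreceptors followed separate courses. Cd4, carried by helper T cells and, in mice, also by some dendritic cells, had 2.64, 4.68 and 3.51 CPM on d3 in DIO callus and 8.93, 9.74 and 9.24 on d5. All d5 values lay above those of d3. On d10 it had 13.1, 17.9 and 11.2 CPM and on d21 10.4, 15.9 and 18.7, so d10 and d21 overlapped. Its log2 fold changes against d3 were 1.95 on d10 (SE 0.31, edgeR adjusted p = 0.000354) and 2.04 on d21 (SE 0.31, adjusted p = 5.66e-05). Cd8a, the alpha chain of the coreceptor of cytotoxic T cells, had 0.721, 0.492 and 0.303 CPM on d3 and 0.268, 0.239 and 0.169 on d5. Its mean on d5 was the lowest of the 10 groups, from 6, 4 and 3 counts. It then had 2.38, 4.83 and 1.54 CPM on d10 and 4.38, 3.41 and 4.92 on d21, with log2 fold changes against d3 of 2.51 (SE 0.49, adjusted p = 0.00167) and 3.05 (SE 0.49, adjusted p = 8.73e-05).

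The ratio of Cd4 to Cd8a counts in the same library moved with these courses. On DIO d5 it was 33.3 to 54.7 (median 40.8), above the range of 13.4 to 24 on lean d5. On DIO d10, d14 and d21 its medians were 5.52, 4.75 and 3.79, and the range on d21 was 2.38 to 4.66. Values on DIO d5 rest on 3 to 6 counts of Cd8a. On lean d5 mean CPM was 26.7 for Cd4 but 1.05 for Cd3e and 1.22 for Cd3g. The part of T cells and of other cells in the Cd4 values was not tested, so the ratio is not one of T cell types. No test was made of these ratios.

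Of the granule genes, Nkg7 encodes a membrane protein of cytotoxic granules and Gzma encodes granzyme A. In DIO callus Nkg7 had 3.36, 6.60 and 4.24 CPM on d3, 15.4, 20.8 and 19.3 on d14, and 47.3, 37.2 and 30.5 on d21. The d21 mice lay above all other groups, and the log2 fold change against d3 was 3.00 (SE 0.48, edgeR adjusted p = 8.56e-05). Against d14 it was 1.05 (SE 0.44, adjusted p = 0.0992), without overlap but not past the threshold, where 18.6% of all genes were higher without overlap. Gzma was barely detected at the start, with 3, 1 and 0 counts on d3, and had 50, 25 and 34 counts on d10 and 110, 52 and 71 on d21. In CPM this was 0.180, 0.0410 and 0 on d3, 3.84, 1.80 and 2.38 on d10, and 6.34, 3.05 and 3.68 on d21. The scaled sum of counts was 38.1 times higher on d10 (95% counting interval 14.45 to 142) and 62.4 times higher on d21 (24.05 to 231). The test gave adjusted p-values of 0.000424 for d10 and 2.89e-05 for d21, and the fitted log2 fold changes, 5.11 (SE 0.83) and 5.81 (SE 0.82), depend on the prior count because the d3 mice are at or under the limit of detection. Without DIO d3 mouse 1, which held 3 of the 4 counts, they were 6.42 and 7.09.

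Klrd1 and Cd226 are the NK receptor genes of the 10. Klrd1, whose product CD94 pairs with NKG2 chains to read the class I molecule Qa-1, had 2.04, 1.48 and 0.908 CPM on DIO d3 and 4.78, 4.23 and 3.06 on d21 (log2 fold change 1.44, SE 0.56, edgeR adjusted p = 0.0426). This call was lost when DIO d3 mouse 2 or 3 or DIO d21 mouse 1 or 2 was left out, with adjusted p-values over the 6 such fits of 0.0467 to 0.153. Cd226, which encodes the activating receptor DNAM-1 and is also known from platelets, had 0.781, 1.80 and 2.24 CPM on d3 and 3.28, 2.17 and 4.56 on d21, groups that overlapped (log2 fold change 1.05, SE 0.68, adjusted p = 0.222). Between these days it was at 0.446, 0.179 and 0.225 CPM on d5, and it was listed at 0 in mouse 2 of d7.

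On d10 against d3, 7 of the 10 genes had already risen in DIO callus, with 11.1% of all genes called higher. Besides Lck, Cd4, Cd8a and Gzma these were Cd3e (log2 fold change 2.34, SE 0.80, edgeR adjusted p = 0.0438), Cd3g (2.69, SE 0.65, adjusted p = 0.00760) and Nkg7 (1.34, SE 0.46, adjusted p = 0.0461). Cd247 was also higher without overlap, at 2.61, 2.60 and 1.96 CPM on d10, but did not pass (0.59, SE 0.30, adjusted p = 0.171). Groups did not overlap for 8 of the 10, where 21.9% of all genes were higher without overlap. The calls of Cd3e and Nkg7 were each lost in 5 of the 6 fits that left out 1 mouse. For Cd3e these were the fits without DIO d3 mouse 1, 2 or 3 or DIO d10 mouse 1 or 3 (log2 fold change 1.52 without DIO d10 mouse 1), and for Nkg7 those without DIO d3 mouse 1, 2 or 3 or DIO d10 mouse 2 or 3. The comparisons of d10 and d21 share the same d3 mice. Between d14 and d21, 0 of the 10 genes passed, against 19.6% of all genes. There 1 gene, Nkg7, had an unadjusted p under 0.05, and DESeq2 also called 0.

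**Figure D2:**
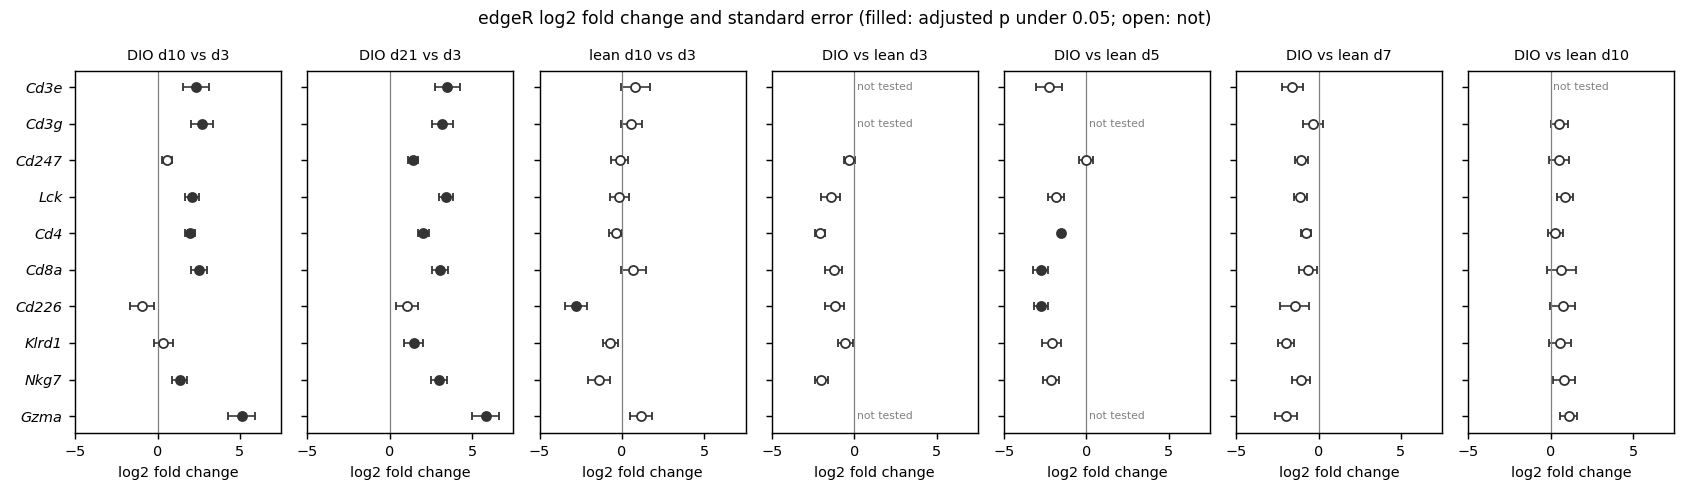
edgeR log2 fold changes of the 10 genes (points) with standard errors (bars) in 7 comparisons, filled where the adjusted p was under 0.05. In DIO callus 7 points are filled for d10 against d3 and 9 for d21 against d3, 1 for lean d10 against d3, and 3 for DIO against lean on d5 but 0 on d3, d7 and d10.

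Other genes of the T cell receptor complex and its signalling were also higher in late DIO callus. Of 9 tested genes of the complex, which include the 3 chains above, 8 were higher on d21 than on d3 and 0 lower, and the list's median log2 fold change was 3.23, against 0.03 for all genes, of which 23.5% were called higher. Trbc2, a constant region of the T cell receptor beta chain, rose by 3.92 (SE 0.46, edgeR adjusted p = 5.50e-06) and Cd3d, the delta chain, by 3.23 (SE 0.47, adjusted p = 3.70e-05). Of 21 tested signalling genes, with Lck among them, 17 were higher and 0 lower. Of 17 tested NK receptor genes, including Klrd1 and Cd226, 13 were higher and 0 lower, with Il2rb, the beta chain of the interleukin-2 and interleukin-15 receptors, at 3.68 (SE 0.55, adjusted p = 4.88e-05). Of 13 cytotoxic granule genes, Nkg7 and Gzma among them, 10 were higher and 0 lower. The higher ones included Ctsw, which encodes the protease cathepsin W of cytotoxic cells (3.92, SE 0.48, adjusted p = 8.34e-06), and Ccl5, a chemokine stored in their granules (3.22, SE 0.34, adjusted p = 2.08e-06). On d10 against d3 the same lists had 6 of 9, 8 of 21, 8 of 17 and 7 of 13 genes higher, against 11.1% of all genes, and 1 signalling gene lower. These counts again include Cd3e, Cd3g, Lck, Nkg7 and Gzma.

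The partners and ligands of these receptors were measured in the same libraries. Cd8b1, which encodes the beta chain that pairs with the product of Cd8a, had 2 to 3 counts a library on DIO d3, 0 to 2 on d5 and 45 to 51 on d21. Of 10 ligand genes, 7 were higher and 1 lower on DIO d21 than on d3. Pvr, a ligand of DNAM-1, fell by 1.52 on the log2 scale (SE 0.19, edgeR adjusted p = 7.86e-06), while Il16, which encodes a ligand of CD4, rose by 1.66 (SE 0.21, adjusted p = 1.13e-05) and B2m, the light chain of class I molecules, by 1.00 (SE 0.17, adjusted p = 0.000209).

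In lean callus a course over days was not shown for the 10 genes. Over the 4 lean days 0 of the 10 passed (edgeR, 3 coefficients together), against 19% of all genes, and the smallest adjusted p was 0.0531 for Cd226. At an unadjusted p under 0.05 there was 1 gene, and DESeq2 called 1, Cd226. Leaving out lean d3 mouse 1, lean d7 mouse 3 or lean d10 mouse 1 gave 1 called gene, which was Cd226 in the first 2 cases (adjusted p = 0.0468 and 0.0394). Between d3 and d5 0 of the 10 passed, against 0.449% of all genes, with 0 at an unadjusted p under 0.05 and 0 by DESeq2. Cd4 was nevertheless higher without overlap on d5, at 25.9, 30.2 and 23.95 CPM against 11.4, 19.01 and 15.95 on d3 (log2 fold change 0.82, SE 0.39, adjusted p = 0.366), as 11.9% of all genes were.

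Cd226 was the 1 gene of the 10 called between lean d3 and d10, where 29.3% of all genes were called. It had 1.60, 6.53 and 2.90 CPM on lean d3, 1.59, 2.39 and 2.09 on d5, 1.35, 1.19 and 3.55 on d7, and 0.125, 0.738 and 0.661 on d10. All d10 values lay below those of the earlier lean days. It fell by 2.81 on the log2 scale from d3 to d10 (SE 0.67, edgeR adjusted p = 0.00951), and by 2.12 without lean d3 mouse 2. Nkg7 was also lower without overlap on d10, at 1.00, 11.5 and 8.47 CPM against 13.8, 30.2 and 13.4 on d3, but did not pass (log2 fold change -1.41, SE 0.66, adjusted p = 0.128). Across all genes 22.2% were lower without overlap. Without lean d3 mouse 2, 2 of the 10 genes and 2863 of all genes were called. From d7 to d10 0 of the 10 passed, against 2.73% of all genes, with 2 at an unadjusted p under 0.05 and 1, Cd226, by DESeq2. In that comparison Cd226 (log2 fold change -1.97, adjusted p = 0.104), Klrd1 (-1.10, adjusted p = 0.167) and Lck were lower without overlap, as 14.8% of all genes were. The remaining chains and coreceptors overlapped between lean d3 and d10, and Cd8a had 0.125, 1.34 and 4.20 CPM on lean d10. Of 7 tested genes of the T cell receptor complex, 1 was higher on lean d10 than on d3 and 0 lower. Of 21 signalling genes 2 were higher and 1 lower, and of 11 cytotoxic granule genes 2 were higher and 1 lower. Of 12 NK receptor genes 0 were higher and 1, Cd226 itself, was lower. The share of all genes called in either direction was 29.3%.

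Platelet and megakaryocyte markers moved with Cd226 in lean callus, since 8 of 10 of them were lower on d10 than on d3 and their summed level was 507 to 1065 CPM on d3 and 54.3 to 217 on d10. Pan-leukocyte markers were lower too, 4 of 5, at 1146 to 1797 CPM and 464 to 706 CPM. The ratio of Cd226 to Pf4 (platelet factor 4) counts, times 100, was 0.856 to 2.92 on lean d3 and 0.727 to 1.70 on lean d10. In DIO callus it was 2.75 to 5.08 on d21, above the d3 range of 0.449 to 1.53. The part of platelets in the Cd226 values was not tested.

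Between the diets, the log2 fold changes of DIO against lean callus were below 0 for all members tested on d3, d5 and d7 and above 0 on d10. On d5, 3 of the 8 genes tested had fallen below lean, against 0.948% of all genes called lower. Cd3g and Gzma did not reach the filter on low counts in that fit. Cd4 had 8.93, 9.74 and 9.24 CPM in DIO and 25.9, 30.2 and 23.95 in lean callus, a log2 fold change of -1.52 (SE 0.14, edgeR adjusted p = 0.0199). Cd8a had 0.268, 0.239 and 0.169 against 1.94, 1.91 and 0.996 CPM (-2.78, SE 0.47, adjusted p = 0.0458), and Cd226 had 0.446, 0.179 and 0.225 against 1.59, 2.39 and 2.09 (-2.76, SE 0.45, adjusted p = 0.0432). Values did not overlap for these 3 genes, nor for 6 others of the 10, and Cd247 was the gene that overlapped. Of the 8 tested, 7 were lower without overlap, where 12.3% of all genes were.

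When lean d5 mouse 2 or any of the 3 DIO d5 mice was left out, 0 of the 10 genes and 0 of all genes were called. Without lean d5 mouse 1, 2 of the 10 were called, and without lean d5 mouse 3, 5 of the 10 and 935 of all genes were. DESeq2 called 6, and a fit of all 30 libraries called 0, while the fold changes of Cd4 over the fits that left out 1 mouse stayed between -1.59 and -1.42. Among the genes that did not pass, Nkg7 had 3.39, 1.55 and 2.03 CPM in DIO and 4.53, 16.3 and 10.4 in lean callus (log2 fold change -2.14, SE 0.49, edgeR adjusted p = 0.0853). For Klrd1 the values were 0.491, 1.08 and 0.282 against 3.53, 3.05 and 1.42 CPM (-2.11, SE 0.56, adjusted p = 0.108). The log2 fold changes of Lck (-1.84, SE 0.51, adjusted p = 0.117) and Cd3e (-2.28, SE 0.77, adjusted p = 0.172) had the same sign. Of the genes not tested, Gzma had 70 counts over the 3 lean mice and 11 over the 3 DIO mice, a scaled ratio of 6.60 with a 95% counting interval of 3.47 to 13.8, and Cd3g had 64 and 14, a ratio of 4.74 (2.63 to 9.16).

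Some genes linked to these receptors were also lower in DIO callus on d5. Their calls were lost, as every call was, in the 4 fits above that left out a mouse and called 0 of all genes. Of 7 tested NK receptor genes, 3 fell, and Cd226, reported above, was 1 of them. The others were Klrk1, which encodes the activating receptor NKG2D (-2.44, SE 0.32, edgeR adjusted p = 0.0306), and Il2rb (-1.90, SE 0.33, adjusted p = 0.0489). Of 10 ligand genes 6 fell, among them the class II genes H2-Ab1 (-1.26, SE 0.15, adjusted p = 0.0296) and H2-Eb1 (-1.30, SE 0.17, adjusted p = 0.0325), whose products are read by CD4 T cells, and H2-T23, which encodes Qa-1 (-1.12, SE 0.14, adjusted p = 0.0296). For the 6 tested genes of the T cell receptor complex and the 20 of its signalling, 0 passed, and their median log2 fold changes were -1.79 and -1.39, against 0.01 for all genes. The genes of the complex were not all lower, as Cd247 was at -0.03. Trac, a constant region of the T cell receptor alpha chain, overlapped, with 0.902 to 2.15 CPM in DIO and 1.55 to 1.88 in lean callus. Of the 5 pan-leukocyte markers 3 were lower, with summed levels of 497 to 545 CPM in DIO and 938 to 1426 in lean callus. Median log2 fold changes were also below 0 for markers of B cells (-1.99), neutrophils (-1.91), platelets and megakaryocytes (-1.86) and erythroid cells (-2.11). Cartilage and bone markers had medians above 0, at 1.47 and 0.453.

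On d3, 0 of the 7 genes tested passed (edgeR), against 0.00% of all genes, with 4 at an unadjusted p under 0.05. DESeq2 called 2, Cd4 and Nkg7. Cd4 had 2.64, 4.68 and 3.51 CPM in DIO and 11.4, 19.01 and 15.95 in lean callus, without overlap (log2 fold change -2.08, SE 0.28, adjusted p = 0.0787). Nkg7 had 3.36, 6.60 and 4.24 against 13.8, 30.2 and 13.4 CPM, also without overlap (-1.99, SE 0.38, adjusted p = 0.101). Both genes were called when lean d3 mouse 3 was left out, as were 237 of all genes. Gzma, not tested, was lower without overlap as well, with 3, 1 and 0 counts in the DIO mice against 4, 35 and 4 in the lean ones. Most of the lean counts came from lean d3 mouse 2, the library that stood apart, and the other lean mice were 1 count above the highest DIO mouse. Across all genes 12% were lower without overlap.

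On d7, 0 of the 10 genes passed (edgeR), against 2.32% of all genes, with 6 at an unadjusted p under 0.05 and 1, Klrd1, by DESeq2. Klrd1 had 1.07, 0.515 and 0.471 CPM in DIO and 3.16, 2.09 and 3.15 in lean callus (log2 fold change -2.00, SE 0.47, adjusted p = 0.0644). It was lower without overlap, as were Cd3e (-1.59, SE 0.63, adjusted p = 0.240), Cd247 (-1.05, SE 0.39, adjusted p = 0.211), Lck (-1.11, SE 0.41, adjusted p = 0.211), Cd4 (-0.75, SE 0.29, adjusted p = 0.229) and Gzma (-1.98, SE 0.66, adjusted p = 0.164). These 6 of 10 compare with 11.9% of all genes. Mouse 3 of DIO d7 was the highest of its group for Lck, with 4.91 CPM against 2.39 and 1.47, and for Nkg7, with 14.1 CPM against 4.03 and 2.57. Without that mouse, 3 of the 10 genes were called, Lck and Gzma among them. In that fit 936 of all genes were called, against 366 with all mice.

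On d10 the diets overlapped for all 10 genes, and 0 of the 9 tested passed (edgeR), against 0.00% of all genes, with 0 at an unadjusted p under 0.05 and 0 by DESeq2. The log2 fold changes were above 0 for all 9, from 0.28 for Cd4 to 1.08 for Gzma (SE 0.51, adjusted p = 0.686). Gzma had 3.84, 1.80 and 2.38 CPM in DIO and 0.689, 1.88 and 1.26 in lean callus.

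Whether the diet difference changed between d3 and d10 was tested in 1 fit of 24 libraries. There 0 of the 10 genes passed (edgeR), against 1.65% of all genes, with 6 at an unadjusted p under 0.05 and 2 by DESeq2. The smallest adjusted p was 0.0630, for Cd4. When lean d10 mouse 3 was left out, 2 of the 10 genes and 602 of all genes were called, against 282 of all genes with all mice. The change of the difference across days was therefore not shown at this threshold for any of the 10.

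The 10 genes were also set against Ptprc in the same library, as CPM of the gene per 100 CPM of Ptprc. On this scale the mean was higher on DIO d21 than on DIO d3 for 9 of the 10, with Cd226 the exception at 1.44 ± 0.243 (SD, n = 3) against 1.91 ± 1.41. Lck went from 1.65 ± 0.272 on d3 to 7.86 ± 1.38 on d21, and Gzma from 0.0594 ± 0.0715 to 1.89 ± 0.496. For Cd247, 1.75 ± 0.797 and 1.95 ± 0.786, and for Klrd1, 1.46 ± 0.102 and 1.87 ± 0.780, the difference was within the spread, and Cd4, at 3.95 ± 1.72 and 6.98 ± 3.11, also overlapped between these days. On DIO d10 Lck had 5.38, 19.6 and 8.32 on this scale, with mouse 2 far above the others. The ranges were 6.90 to 8.72 on d14 and 7.03 to 9.46 on d21, so mouse 1 of d10 lay below both and mouse 3 within both. In lean callus 9 of the 10 means were higher on d10 than on d3, and Lck had 7.59 to 9.03 on d10 against 1.06 to 3.12 on d3, as Ptprc itself went from 179 ± 67.1 to 46.8 ± 25.0 CPM. On d5 the relative level was lower in DIO than in lean callus for 9 of the 10 genes, with Cd4 at 12.7 ± 0.221 against 18.9 ± 1.63 and Cd8a at 0.307 ± 0.0690 against 1.12 ± 0.255. No test was made on this scale.

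**Figure D3:**
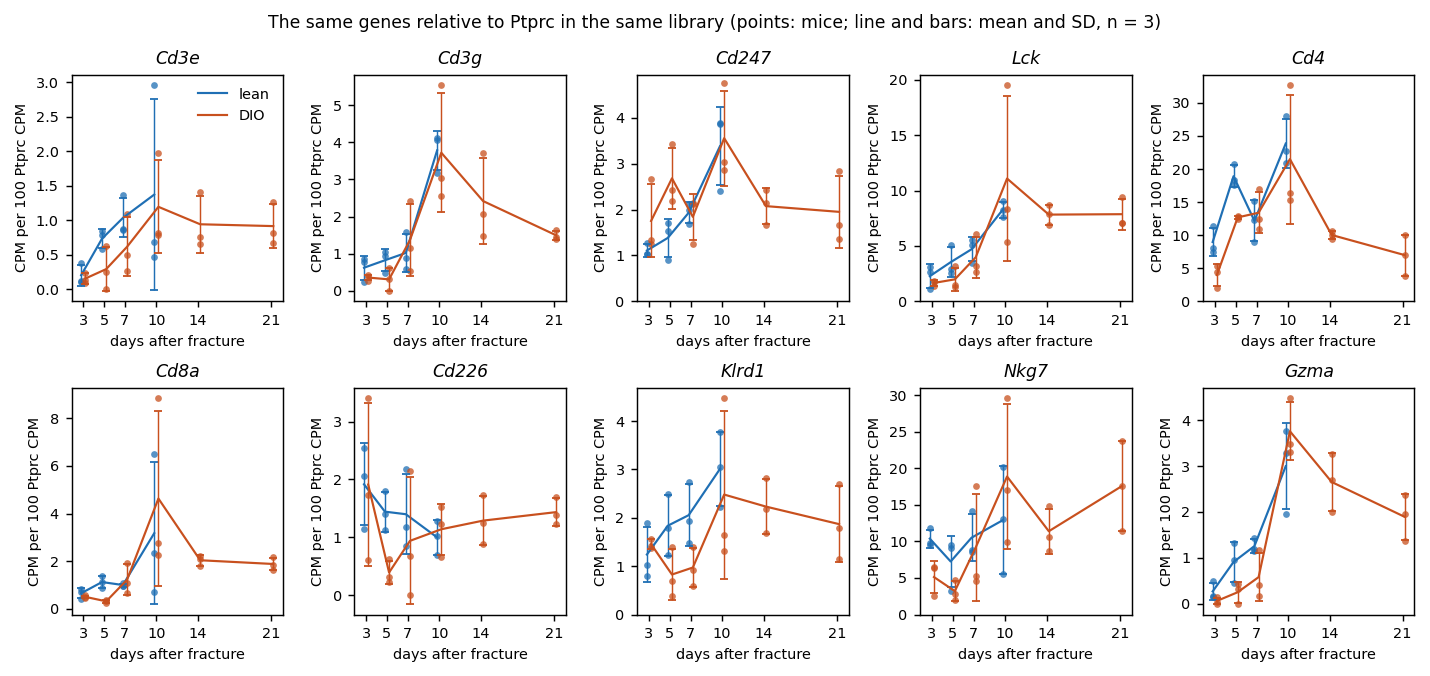
The same 10 genes as CPM per 100 CPM of Ptprc in the same library (linear axis) against days after fracture, with points for mice and lines and bars for the mean and SD of 3 mice. Lck on lean d10, 7.59 to 9.03, lay in the range of DIO d21, 7.03 to 9.46, and the Cd226 mean was 1.91 on DIO d3 and 1.44 on DIO d21.

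B cell markers were all 12 higher on DIO d21 than on d3, their summed level going from 114 to 156 CPM on d3 to 1489 to 2068 on d21, and 10 of 12 were higher on d10. Of 5 tested lymphoid progenitor markers all were higher on d21, at 150 to 247 CPM against 35.3 to 44.1. Erythroid markers summed to 609 to 704.5 CPM on DIO d3 and 23056 to 32980 on d21. For 7 lymph node stroma markers the summed level was 0.363 to 0.656 CPM on d3 and 5.11 to 13.6 on d21, and of the 2 that could be tested Cr2 was higher and Ccl21a lower. On d21 Ccl21a, Ccl19, Glycam1 and Chst4 were at 0, and the summed level came from the other 3 markers. Pan-leukocyte markers had risen on DIO d21 in 4 of 5 cases but in 0 of 5 on d10. The part of these cells or of marrow in the values of the 10 genes was not tested.

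**Figure D4:**
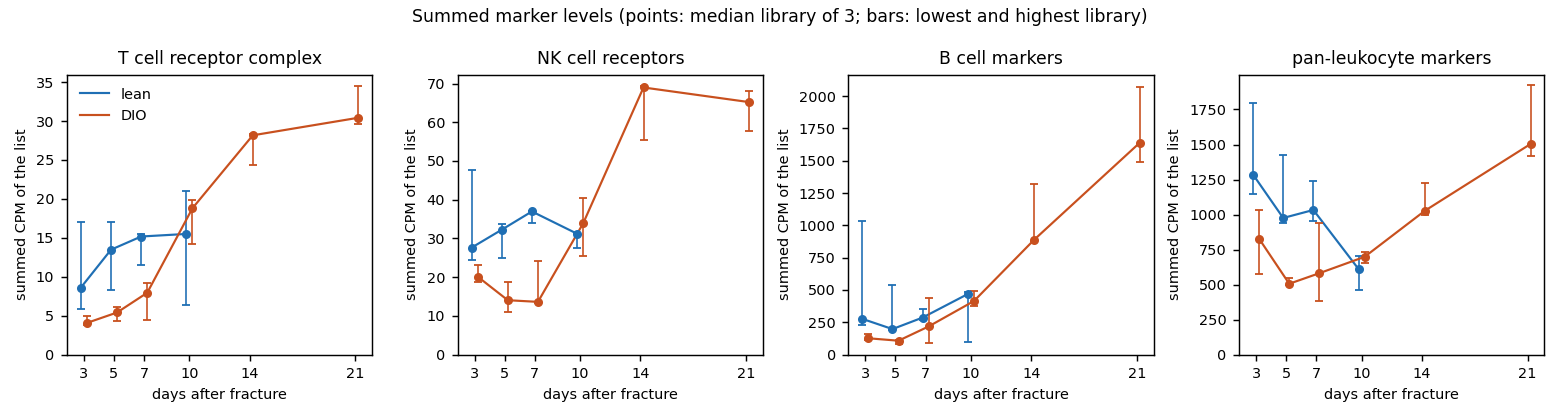
Summed CPM (linear axis) of 4 marker lists against days after fracture in lean (blue) and DIO (orange) callus, with the median library as the point and the lowest and highest library as bars. In DIO callus the B cell markers went from 114 to 156 CPM on d3 to 1489 to 2068 on d21, and the 10 measured genes of the T cell receptor complex from 3.75 to 4.99 to 29.6 to 34.4.

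Over the 30 libraries the 10 genes resembled each other to different degrees. Pearson r of log2 CPM (prior count 2) ran from 0.366 to 0.914 over the 45 pairs, with a median of 0.664. These libraries share days and diets, so r describes the common course. Lck and Cd8a were the most alike pair (0.914), followed by Lck and Cd3g (0.912), and Lck was also the closest to Gzma (0.891) and Nkg7 (0.856). Cd226 and Gzma were the least alike (0.366), and Cd226 was the least alike gene for 6 of the others. With Ptprc, r was 0.805 for Cd226, 0.602 for Lck and 0.405 for Gzma. With the B cell receptor gene Cd79a, r was 0.951 for Lck and 0.598 for Cd226.

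**Figure D5:**
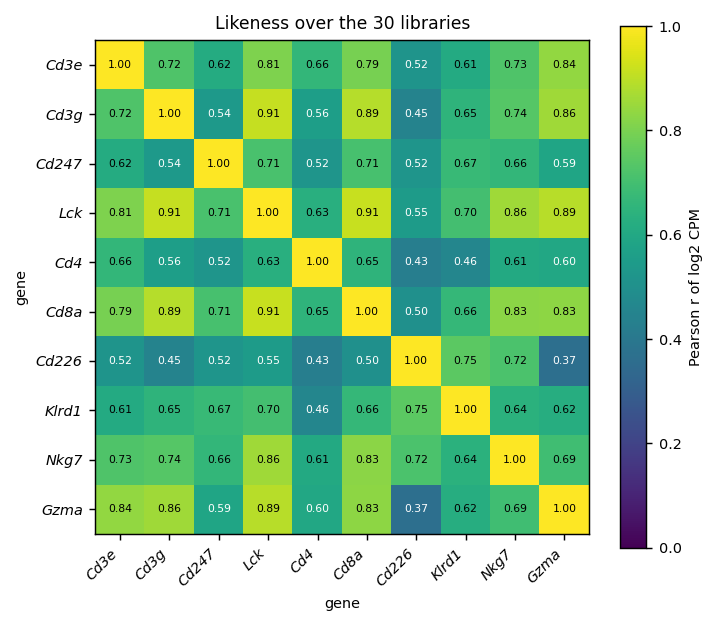
Pearson r of log2 CPM between the 10 genes over the 30 libraries (colour scale from 0 to 1). Lck has the highest values, 0.914 with Cd8a and 0.912 with Cd3g, and Cd226 the lowest, 0.366 with Gzma.

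Among 17345 candidate genes outside the 10, those most like Cd3e were Gimap3, a GTPase gene of lymphocytes (r = 0.856), Il2rb (0.849), Il9r (0.847), Ncr1, which encodes the NK receptor NKp46 (0.828), and Lax1, a lymphocyte adaptor gene (0.827). For Cd4 they were Gbp8 (0.841), Tnfrsf18, which encodes the costimulatory receptor GITR of the TNF receptor family (0.797), Spic, a transcription factor gene of iron-recycling macrophages (0.787), Tlr12 (0.777) and Slc40a1, the gene of the iron exporter ferroportin (0.773). Nkg7 was most like Mcpt8, a protease gene of basophils (0.967), Spn, the gene of the leukocyte sialoprotein CD43 (0.966), Gfi1b, a transcription factor gene of erythroid cells and megakaryocytes (0.964), Rasgrp2 (0.960) and Pklr, the pyruvate kinase gene of liver and red cells (0.960). On lean d3 mean CPM was 19.1 for Nkg7, 0.564 for Gzma and 0.387 for Ncr1. Which cells gave the Nkg7 reads was not tested. None of these r values carries a test.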

How the data were processed

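The series measured poly(A) RNA of fracture callus in 30 libraries. The authors demultiplexed reads with bcl2fastq, trimmed them, aligned them with HISAT2 2.1.0 to GRCm38 and counted them with HTSeq, and deposited raw counts per gene. The strand option of the counting is not given in the sources used here, and no gene length or GC correction had been made.

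Groups came from the labels (diet and day). The counts were fitted with edgeR 4.0.16 in R 4.3.3 (quasi-likelihood F-test, two-sided, TMM factors, filterByExpr, Benjamini-Hochberg adjustment over all genes tested, threshold 0.05). Lean days used the 12 lean libraries, DIO days the 18 DIO libraries, each diet comparison the 6 libraries of its day, and the diet-by-day test 24. Alternatives were DESeq2 1.42.0, RLE factors, no filter but 1 count, a block for the replicate number, all 30 libraries in 1 fit and leaving out each library. The code was tested on simulated data. All 10 genes are named, with a test printed where a gene passed, where groups did not overlap or where its adjusted p was the smallest. From each of 19 gene lists up to 3 genes, ranked by adjusted p, are named, and for Cd3e, Cd4 and Nkg7 the 5 most alike genes. The 10 genes and the lists were chosen with earlier results of these data known. Positions are from GENCODE and promoter sequence from RefSeq, both on GRCm38, and 42548 of 43629 gene IDs matched. Of 207 list entries 206 were in the table. No pair of libraries within a group differed by as little as sampling noise (chi-square per degree of freedom 12.8 to 148 over 30 pairs). Library totals ran from 13247122 to 26365620, so 3 counts were 0.114 to 0.226 CPM. With 3 mice a group, precision is limited by both counting error and the spread between mice.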

Additional observations from a re-analysis of the deposited data

Results flagged for a closer look

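Nkg7 values lay in opposite directions between d3 and d10 in the 2 diets. In lean callus they were 13.4 to 30.2 CPM on d3 and 1.00 to 11.5 on d10, a difference that did not pass (edgeR adjusted p = 0.128, log2 fold change -2.00 to -0.89 when 1 mouse was left out). In DIO callus they were 3.36 to 6.60 CPM on d3 and 8.52 to 16.2 on d10, a call (adjusted p = 0.0461) that was lost in 5 of the 6 fits that left out 1 mouse. The test of diet by day did not pass for Nkg7 (adjusted p = 0.177).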

How the results depend on the processing

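Counts of the 10 genes called depended on the setting mainly between diets. DESeq2 called 1 over lean days, 1 for lean d10 against d7, 2 for the diets on d3, 6 on d5 and 1 on d7, and 2 for diet by day. With no filter but 1 count the numbers were 1 over lean days, 2 on d3, 1 on d7 and 1 for diet by day. With all 30 libraries in 1 fit they were 1 over lean days and 0 on d5. At 10 counts or more 3 genes were detected in all libraries.

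Leaving out 1 library gave 0 to 1 over lean days, 0 for lean d5 against d3 and lean d10 against d7, 1 to 2 for lean d10 against d3, 10 over DIO days, 5 to 6 for DIO d10 against d3, 0 for DIO d21 against d14, 8 to 9 for DIO d21 against d3, 0 to 2, 0 to 5, 0 to 3 and 0 for the diets on d3, d5, d7 and d10, and 0 to 2 for diet by day. Relative to Ptprc, 1 to 4 genes were higher in DIO than in lean callus on d3. The cause of these differences was not tested.

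Replicate numbers only name mice. Deviations of same-numbered libraries correlated by over 0.1 in 11 of 18 lean pairs and 11 of 45 DIO pairs, and 8 of 12 lean libraries correlated best with their own number. With the replicate block the counts were 1 over lean days, 2 for lean d10 against d3, 10 over DIO days, 5 for DIO d10 against d3, 9 for DIO d21 against d3, 2 for the diets on d3, and 0 on d5, d7 and d10 and for diet by day.

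Over all genes, the calls of edgeR and DESeq2 were 3132 and 4848 over lean days, 74 and 605 for lean d5 against d3, 450 and 1827 for lean d10 against d7, 0 and 728, 170 and 1150, 366 and 944, and 0 and 47 for the diets on d3, d5, d7 and d10, and 282 and 1151 for diet by day. No filter gave 169 for lean d5 against d3, 515, 565, 724 and 29 for the diets, and 503 for diet by day. The block gave 199, 1479, 325 and 0 for lean d5 against d3, lean d10 against d7 and the diets on d3 and d5. All 30 libraries gave 202, 1529, 63, 675 and 3 for lean d5 against d3, lean d10 against d7 and the diets on d5, d7 and d10. For 52 results on single genes, 647 alternative values kept direction and side of the threshold, 38 lost the call, 30 gained it and 0 reversed.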

Other observations

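Of 15 tested genes of T cell subsets and their regulators, Cd4 and Cd8a among them, 10 were higher and 2 lower on DIO d21 than on DIO d3. Their median log2 fold change was 2.17. Il7r, which encodes the interleukin-7 receptor, rose by 2.72 (SE 0.34, edgeR adjusted p = 1.10e-05) and Ccr7, a receptor gene of naive and central memory T cells, by 2.93 (SE 0.45, adjusted p = 6.71e-05). Il7r was also counted among the lymphoid progenitor markers above. The part of other cells in the values of Il7r and Ccr7 was not tested. On d10 against d3, 3 of the 15 were higher, which were Cd4, Cd8a and Cd8b1.

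Myeloid markers had mixed directions on DIO d21 against d3, with 7 of 9 neutrophil markers higher, 1 of 11 macrophage and monocyte markers higher and 3 lower, 5 of 11 dendritic cell markers higher and 5 of 7 mast cell markers higher. Skeletal muscle markers, 2 of 8, were lower. Of 8 cartilage markers 1 was higher and 2 lower, and of 8 bone markers 4 were higher and 3 lower.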
